A study of Mus musculus with 4 samples.

Results

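Collagen genes were taken as the protein-coding genes whose GENCODE M21 symbol is Col, a number, the letter a and a number, which gave 44 genes of 21755 protein-coding genes (autosomal and X-linked). They were grouped by the kind of chain they encode: 11 fibrillar chains, 6 basement membrane chains, 7 beaded-filament chains, 9 FACIT chains (fibril-associated collagens with interrupted triple helices), 4 transmembrane chains, 3 short-chain network chains, 2 multiplexins, the anchoring fibril chain Col7a1, and Col26a1, which was left unclassified. The data are peak lists of H3K4me3, trimethylation of lysine 4 on histone H3, from chromatin immunoprecipitation and sequencing of whole gastrocnemius, a calf muscle. The tissue came from adult female B6CASTF1/J mice, which are F1 hybrids of C57BL/6J and CAST/EiJ, at 2 months of age and without any named treatment. There were 4 libraries, 2 from pool E (biological replicate 1) and 2 from pool F (biological replicate 2), each pool made of 2 gastrocnemius biosamples. Each pool therefore averages over its tissue pieces, and both pools carry the same donor entry, so whether they stand for separate animals is not given in the sources used here. No list exists for a single library, there is no second tissue or condition, and the lists give no read counts, so the depth behind each peak is unknown and no test was made. Values are given for the replicated list, which holds 41955 peaks, and beside it for the separate lists of pool E with 42418 peaks and pool F with 39544 peaks.

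A gene is called marked where a peak lies within 1000 bp of any of its annotated transcription start sites (TSSs). Its signal value is the highest signal that the authors gave to such a peak; the unit of that signal is not stated, so signal values are ranked within a list only. A domain is a run of peaks joined across gaps of at most 1000 bp, and the widest domain near a TSS was taken for each gene. Percentiles are ranks among all marked protein-coding genes of the same list.

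Collagens are secreted or membrane-anchored proteins in which 3 chains wind into a triple helix. Fibrillar collagens build the load-bearing fibres of tendon and of the connective tissue around muscle fibres, where FACIT collagens sit on the fibril surface. Type IV collagen forms the network of the basement membrane around each muscle fibre and vessel, and type VI collagen forms beaded filaments that tie this layer to the surrounding matrix. H3K4me3 is placed at the promoters of genes that are active or poised, most broadly at CpG-rich promoters, and it says where promoters carry the mark and not how much RNA or protein is made. In muscle, fibroblasts are the main known source of fibrillar and type VI collagen.

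The tissue label was checked with marker genes. All 5 muscle fibre genes were marked with a median signal of 53.1, as were 5 of 5 fibroblast genes (2 of which, Col1a1 and Col1a2, are collagens themselves), 3 of 3 tendon and 3 of 3 endothelial genes, and 2 of 3 Schwann cell genes. Among the tendon genes, Tnmd had a signal of only 3.67. None of the 3 hepatocyte genes was marked. Of the chondrocyte genes, 5 of 7 were marked, Sox9 at 42.1 and Acan, the main cartilage proteoglycan, at 6.31, while Matn1 and Snorc were unmarked. Of the keratinocyte and epithelial genes, 3 of 5 were marked, and Krt5 and Krt14 were unmarked. Since 69.3% of all protein-coding genes were marked, the shares of the Schwann cell, chondrocyte and epithelial lists are near that of genes in general. In a whole tissue, fewer cells of a type and less of the mark per cell cannot be told apart, and this holds for each signal value given here.

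Promoter sequences are shown for members at the ends of the range, because marked collagen promoters ran from CpG-dense to CpG-free. They are the bases before the RefSeq start on the gene's strand, 5′ to 3′, from RefSeq on GRCm38.p6 (the assembly also called mm10), with CpG dinucleotides in capitals. Of the 44 genes, 35 matched the RefSeq promoter table, with 38 promoters in all. Col5a1 carried the highest collagen signal and has 28 CpGs in 250 bases at chr2:27886175-27886424 on the plus strand. Col3a1, at chr1:45311288-45311537 on the plus strand, had one of the widest domains and has 0 CpGs. Col6a3, at chr1:90843972-90844221 on the minus strand, also had a wide domain and has 3 CpGs. Col10a1, at chr10:34389731-34389980 on the plus strand with 5 CpGs, and Col9a1, at chr1:24177360-24177609 on the plus strand with 0 CpGs, are unmarked.
Col5a1: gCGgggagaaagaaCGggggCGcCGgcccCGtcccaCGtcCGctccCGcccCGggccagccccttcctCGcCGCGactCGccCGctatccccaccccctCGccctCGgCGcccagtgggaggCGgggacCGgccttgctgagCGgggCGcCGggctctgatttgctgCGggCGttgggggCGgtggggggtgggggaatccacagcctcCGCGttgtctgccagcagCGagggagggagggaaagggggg
Col3a1: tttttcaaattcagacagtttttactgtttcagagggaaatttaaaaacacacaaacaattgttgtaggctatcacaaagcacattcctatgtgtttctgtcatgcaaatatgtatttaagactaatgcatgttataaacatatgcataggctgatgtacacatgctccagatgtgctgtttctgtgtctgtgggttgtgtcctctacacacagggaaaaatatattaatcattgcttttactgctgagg
Col6a3: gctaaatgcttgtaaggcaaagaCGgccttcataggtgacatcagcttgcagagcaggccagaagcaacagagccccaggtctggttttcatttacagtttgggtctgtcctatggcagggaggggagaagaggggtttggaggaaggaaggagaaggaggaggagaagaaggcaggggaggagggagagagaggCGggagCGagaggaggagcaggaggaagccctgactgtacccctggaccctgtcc
Col10a1: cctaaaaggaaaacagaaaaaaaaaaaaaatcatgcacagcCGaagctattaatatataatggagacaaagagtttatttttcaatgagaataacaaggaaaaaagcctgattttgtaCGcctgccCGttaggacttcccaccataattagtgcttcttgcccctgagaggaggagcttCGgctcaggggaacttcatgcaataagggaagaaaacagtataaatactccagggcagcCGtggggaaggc
Col9a1: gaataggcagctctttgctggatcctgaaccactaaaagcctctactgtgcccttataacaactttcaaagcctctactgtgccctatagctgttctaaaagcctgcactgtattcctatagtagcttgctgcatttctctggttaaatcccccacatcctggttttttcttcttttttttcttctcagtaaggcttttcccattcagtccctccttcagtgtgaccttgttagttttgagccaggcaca
The Col3a1 and Col9a1 stretches both lack CpGs, yet the first lay under a 7861 bp domain and the second had no peak within 1000 bp in any list. TATAAA occurs 117 bases before the Col3a1 start and 32 bases before the Col10a1 start.

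Of the 44 collagen genes, 37 were marked in the replicated list, or 84.1%, where 69.3% of all protein-coding genes were marked. In the list of pool E 36 were marked, against 69.3% of all genes, and in that of pool F 36, against 68.9%. The pools shared 35 members, and 7 were unmarked in both. Of all 21755 protein-coding genes, the pools had 14930 marked genes in common, and 6635 had no mark in either. A further 136 were marked by pool E alone and 54 by pool F alone, against 1 collagen gene each. With so few collagen genes on which the pools differed, no difference from all genes was tested. Marking by chain type was complete for 11 of 11 fibrillar genes, 6 of 6 basement membrane genes and 2 of 2 multiplexins. It was partial for 5 of 7 beaded, 7 of 9 FACIT, 3 of 4 transmembrane and 2 of 3 short-chain genes. Col26a1 was marked and Col7a1 was not. The groups are small and no difference in marking between chain types was tested.

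The 2 members on which the pools differed were the weakest of the marked ones. Col9a3, an alpha chain of the cartilage collagen type IX, had a signal of 2.57 in the replicated list with a −log10 q of 1.31, 3.15 in pool F and no peak in pool E. Col6a5, one of the longer type VI chains, had 3.08 in the replicated list, 4.07 in pool E and no peak in pool F. Both signals lie in the lowest percentile of marked genes, at 0.119 and 0.534, so these 2 calls rest on peaks near the floor of the lists.

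**Figure D1:**
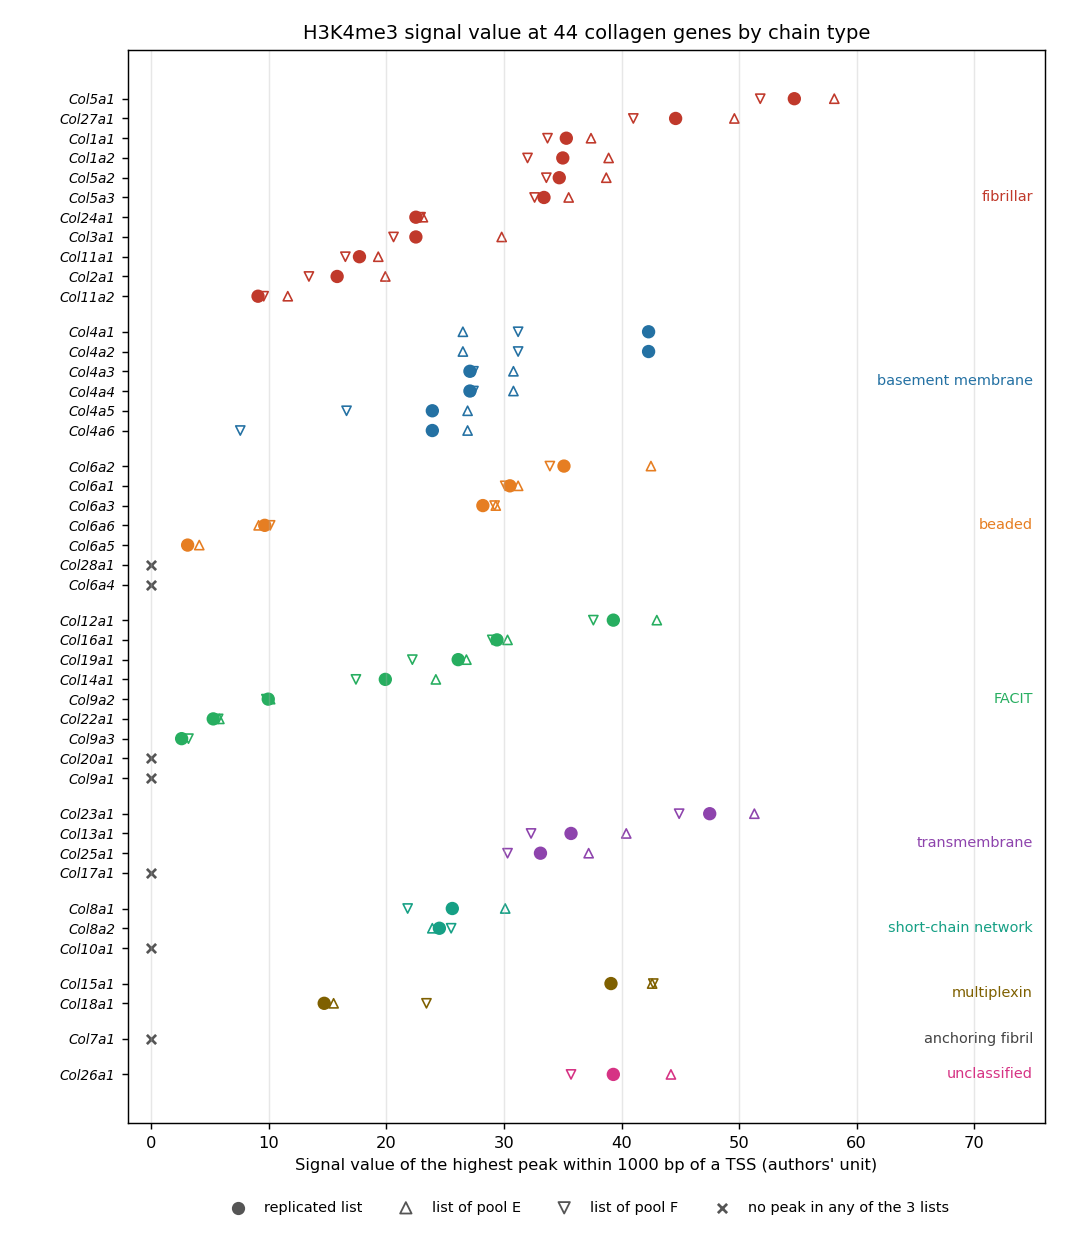
Signal value of the highest peak within 1000 bp of a TSS (horizontal axis, the authors' unit, not comparable between lists) for each of the 44 collagen genes, grouped by chain type. Filled circles are the replicated list, upward triangles pool E, downward triangles pool F, and crosses the 7 genes with no peak in any of the 3 lists; fibrillar values run from 9.07 to 54.7 and FACIT values from 2.57 to 39.3.

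Collagen promoters carried the mark at lower signal than most marked genes and over longer stretches. The median signal of the 37 marked collagen genes was 27.1, with an interquartile range of 19.9 to 35.3, against 45.2 (31.7 to 54.7) over all marked genes. Only Col5a1 and Col23a1 lay above the all-gene median. The order was alike in the pools: 29.9 against 48.9 in pool E and 28.2 against 42.9 in pool F. The median collagen domain was 3090 bp against 2400 bp over all marked genes, 22 of 37 lay above the all-gene median, and 9 of 37 (24.3%) were over 5000 bp, against 12.4% of all marked genes. Without joining of peaks the widest single peak had a median of 2105 bp in collagen genes and 2281 bp in all genes, so the direction of the width difference depends on counting neighbouring peaks as one domain. Collagen genes are long, with a median of 114 kb against 17.4 kb, and whether gene length moves with domain width was not tested. In these medians, type IV genes that share a peak or a domain count as separate genes.

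**Figure D2:**
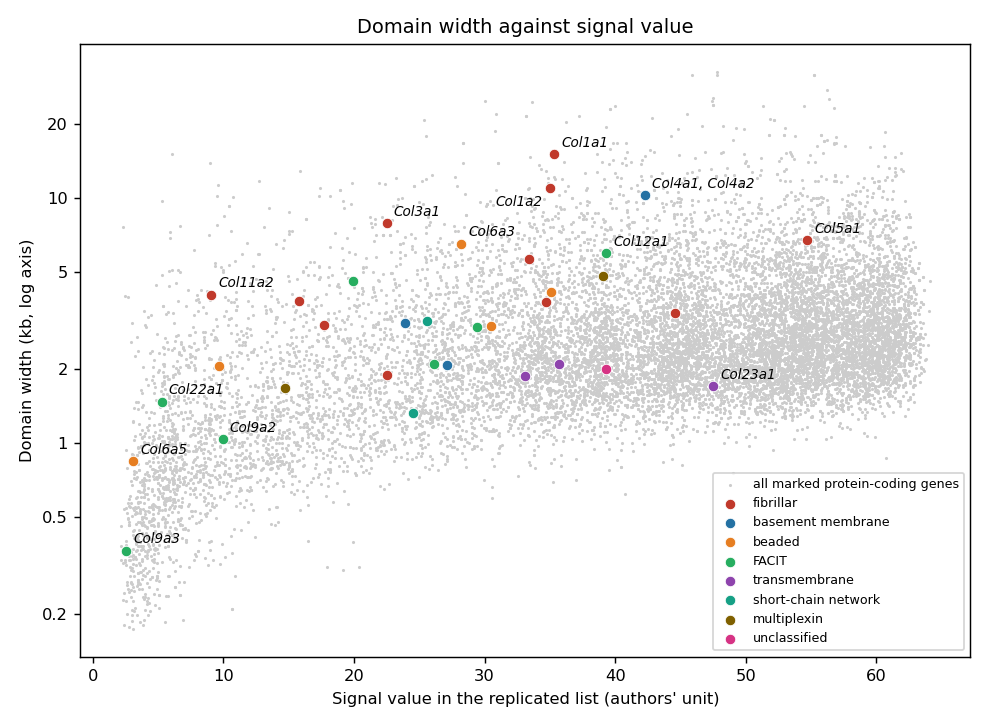
Domain width in kb (vertical log axis) against signal value in the replicated list (horizontal axis, authors' unit) for each marked protein-coding gene in grey and the marked collagen genes coloured by chain type. Col1a1 and Col1a2 sit far above most genes of similar signal, Col4a1 and Col4a2 share 1 point, and Col23a1 pairs a signal of 47.5 with a domain of 1706 bp.

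The fibrillar genes had the widest domains of the larger chain groups, with a median of 4026 bp and a median signal of 33.4. Col1a1, which encodes the more abundant chain of type I collagen, had the widest domain of all collagens at 15097 bp (chr11:94933013-94948109), at percentile 99.5. The width was 15086 bp in pool E against 15929 bp in pool F, while its signal of 35.3, with 37.4 in pool E and 33.7 in pool F, was only at percentile 30.7. Col1a2, its partner chain, had a domain of 10984 bp (chr6:4502216-4513199), 10952 bp in pool E against 10839 bp in pool F, at percentile 98.6. The Col1a2 signal was 35.0, with 38.9 in pool E and 32.0 in pool F. The 2 type I genes therefore matched closely in signal, and the wider of the 2 domains was that of Col1a1 in all 3 lists.

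Col3a1, the chain of type III collagen in reticular fibres, had a domain of 7861 bp (chr1:45310504-45318364), 8392 bp in pool E against 7502 bp in pool F. Its signal of 22.5 was lower than that of the type I genes, with 29.8 in pool E and 20.6 in pool F. The type V genes encode chains that are built into type I fibrils and limit their diameter. Col5a1 had a signal of 54.7, with 58.1 in pool E and 51.8 in pool F, and a domain of 6723 bp. Col5a2 had 34.7, with 38.7 in pool E and 33.6 in pool F, and Col5a3 had 33.4, with 35.5 and 32.6. In every list Col5a1 stood above all other collagens. The order of Col1a1, Col1a2 and Col5a2 was not the same in the pools, Col1a2 being the highest of the 3 in pool E and the lowest in pool F.

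Col27a1, a fibrillar chain studied mostly in cartilage, had the next highest fibrillar signal at 44.6, with 49.6 in pool E and 41.0 in pool F, over a domain of 3395 bp. The chains best known from cartilage were marked at lower signal. Col2a1, the main cartilage collagen, had 15.8, with 19.9 in pool E and 13.4 in pool F, and its partner Col11a1 had 17.7, with 19.3 and 16.5. Col11a2 had the lowest fibrillar signal at 9.07, with 11.6 in pool E and 9.55 in pool F, over a domain of 4026 bp. Col24a1 had 22.5, with 23.1 and 22.9, and the narrowest fibrillar domain at 1885 bp. The fibrillar genes thus spanned about the whole collagen range of signal above the weakest peaks, and each kept its peak in both pools.

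Fibrillar domains lay mainly inside the genes. In 36 members a TSS lay under the domain, and its reach was measured from the first such start. The median collagen domain reached 642 bp upstream and 1919 bp downstream, against 720 bp and 1531.5 bp in 14538 protein-coding genes. It reached further downstream than upstream in 30 of 36 members (83.3%), which is near the 83.8% of all genes. Without the type IV genes, whose paired starts face away from each other, it did so in 28 of 30 (93.3%). Such pairs were not taken out of the all-gene share. A reach of over 3000 bp downstream occurred in 16 of 36 members (44.4%) and in 17.9% of all genes. All 11 fibrillar domains reached further downstream than upstream, with a median of 3443 bp downstream and 554 bp upstream. Of the 11, 9 went past 3000 bp, with Col27a1 at 3193 bp in the replicated list but 2766 bp in pool F. These reaches are of joined domains, and the reach without joining was not measured. The Col27a1 domain joins 2 peaks, and the Col11a2 domain, with 3119 bp downstream, joins 3. Col1a1 reached 3211 bp upstream and 11885 bp downstream, which covers 70.7% of a gene of 16.8 kb. Col1a2 reached 8385 bp downstream (22.8% of the gene), Col3a1 6826 bp (17.9%) and Col5a3 5267 bp (11.7%).

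**Figure D3:**
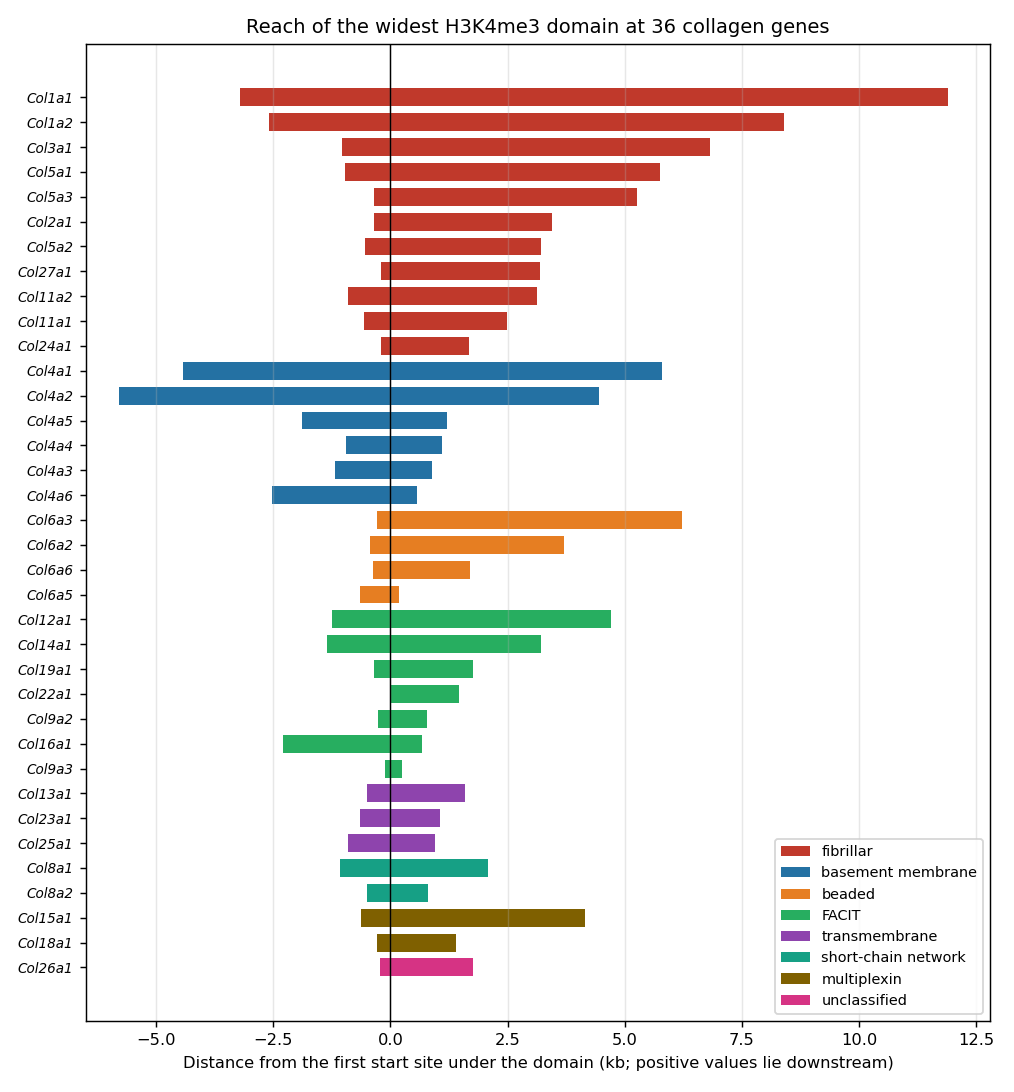
Reach of the widest domain in the replicated list for the 36 collagen genes with a TSS under it, in kb from the first TSS that it covers; positive distances lie downstream in the direction of transcription. Bars are coloured by chain type; all 11 fibrillar bars extend further to the right than to the left, Col1a1 to 11885 bp, while Col4a2, Col4a6, Col4a5, Col4a3, Col16a1 and Col6a5 extend further to the left.

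The 6 type IV genes form 3 pairs whose starts face away from each other, and these were the 3 head-to-head collagen pairs within 2000 bp. Their chains make the basement membrane network, with Col4a1 and Col4a2 in nearly every basement membrane and the other 4 chains in a narrower set of tissues such as kidney. Of the 37 strongest collagen peaks, 6 lay within 1000 bp of a TSS of another protein-coding gene, and all 6 were at type IV genes. Values of the 2 genes of a pair are therefore 1 measurement where they share a peak.

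Col4a1 starts at position 11312826 of chromosome 8 on the minus strand and Col4a2 at 11312805 on the plus strand, so that the 2 genes overlap at their starts and no bases lie between them. A single peak of 9572 bp (chr8:11307691-11317262) covered both starts, with a signal of 42.3 in the replicated list, 26.5 in pool E and 31.2 in pool F. The domain was 10240 bp wide (percentile 98.3), 13623 bp in pool E against 10193 bp in pool F, the pool E domain being longer on the Col4a1 side.

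Col4a3 and Col4a4 start 72 bp apart on chromosome 1, with 71 bases between them, and shared 1 peak of 2068 bp (chr1:82585741-82587808). Its signal was 27.1, with 30.8 in pool E and 27.4 in pool F. Col4a5 and Col4a6 start 1309 bp apart on the X chromosome and had a peak each. The Col4a5 peak (chrX:141475042-141476596) had a signal of 23.9, with 26.9 in pool E and 16.6 in pool F. The Col4a6 peak (chrX:141473507-141474231) had 7.54, with 8.35 and 7.56, and was 725 bp wide. Because the Col4a5 peak lies 966 bp from the Col4a6 start in the replicated list, the window gives Col4a6 the Col4a5 value of 23.9 there; its own start has 7.54. The 2 members of this pair thus differed in signal in every list, with Col4a5 higher.

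Sequences at 2 of the pairs are shown because 1 pair shared a peak and the other had 2: the whole interval between Col4a4 and Col4a3, and the bases just before the starts of Col4a5 and Col4a6, which are only part of the 1308 between them. The interval between Col4a4 and Col4a3 is chr1:82586850-82586920, read on the minus strand, and holds 2 CpGs in 71 bases. Upstream of Col4a5, on the plus strand at chrX:141475169-141475384, 216 bases hold 8 CpGs, and upstream of Col4a6, on the minus strand at chrX:141474077-141474326, 250 bases hold 3. CpGs are again in capitals.
Col4a4 to Col4a3: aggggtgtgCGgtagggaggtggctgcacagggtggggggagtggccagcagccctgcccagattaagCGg
Col4a5: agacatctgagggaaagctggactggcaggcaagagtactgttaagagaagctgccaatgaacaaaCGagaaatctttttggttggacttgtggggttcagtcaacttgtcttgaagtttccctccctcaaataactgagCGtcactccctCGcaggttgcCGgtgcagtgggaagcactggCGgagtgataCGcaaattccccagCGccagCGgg
Col4a6: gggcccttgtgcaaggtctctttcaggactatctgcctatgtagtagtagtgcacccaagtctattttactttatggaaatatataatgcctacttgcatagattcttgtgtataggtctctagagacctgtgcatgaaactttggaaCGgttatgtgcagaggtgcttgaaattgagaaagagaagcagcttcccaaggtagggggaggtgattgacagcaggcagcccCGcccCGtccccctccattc
The stretch before Col4a5 holds CCAAT, on 1 of the strands, 162 bases before the start, and that before Col4a6 holds GGGCGG. The 250 bases before the RefSeq start of Col4a5, at position 141475419, also hold GGGCGG, but the printed stretch ends before that start and lacks it.

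**Figure D4:**
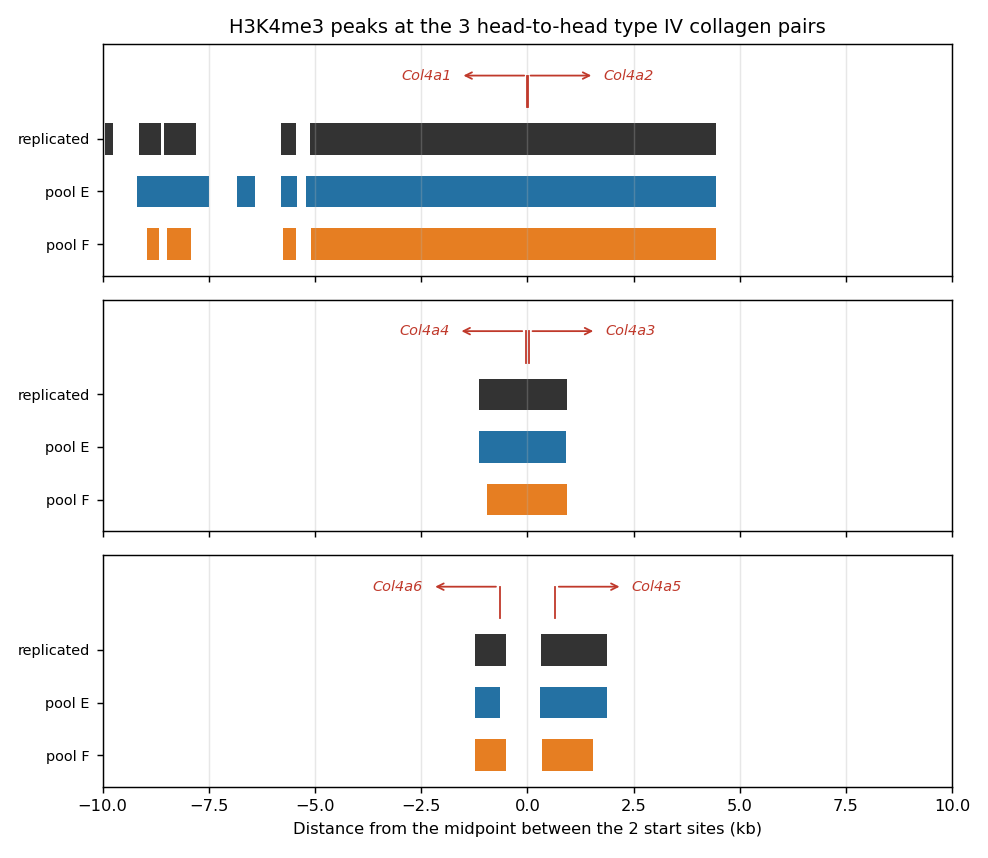
Peaks of the replicated list (black), pool E (blue) and pool F (orange) around the 3 type IV pairs, in kb from the midpoint between the 2 starts, with red arrows for the starts and their directions. Col4a1 and Col4a2 share 1 wide peak, Col4a3 and Col4a4 share 1 peak of 2068 bp, and Col4a5 and Col4a6 have separate peaks in all 3 lists; bar heights carry no value.

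Among the beaded-filament genes, the 3 chains that form the common type VI collagen were marked alike. Col6a2 had a signal of 35.1, with 42.5 in pool E and 33.9 in pool F, over 4125 bp. Col6a1 had 30.5, with 31.2 and 30.1, over 2992 bp, and Col6a3 had 28.2, with 29.3 and 29.2, over 6505 bp (chr1:90837748-90844252). The Col6a3 domain ran 6223 bp into the gene and was the widest of the group. The Col6a1 peak of the replicated list ends 119 bp inside the GENCODE start, yet the RefSeq start at position 76726044 of chromosome 10 lies under it, since the peak ends at 76726049. In pool E a further small peak with a signal of 4.72 covered the GENCODE start.

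The alternative alpha chains, which can take the place of Col6a3, were weaker or unmarked. Col6a6 had a signal of 9.64, with 9.12 in pool E and 10.1 in pool F, Col6a5 had the pool E peak described above, and Col6a4 had no peak within 37025 bp of a TSS. Col28a1, a related beaded chain expressed in peripheral nerve, was unmarked at 1000 bp. A peak with a signal of 7.52, 8.70 in pool E and 6.56 in pool F, lay 1181 bp from one of its alternative starts, which is the nearest miss in the family. Col6a4, Col6a5 and Col6a6 lie side by side on chromosome 9, so the 3 neighbours of 1 gene cluster gave 3 different states.

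FACIT genes had a median signal of 19.9 and a median domain of 2105 bp. Col12a1, whose product bridges type I fibrils in tendon and around muscle fibres, led the group with 39.3, 43.0 in pool E and 37.6 in pool F, over 5961 bp. Col16a1 had 29.4, with 30.3 and 29.0, and Col19a1, found in basement membrane zones, had 26.1, with 26.8 and 22.2. Col14a1, the relative of Col12a1 in the same tissues, had 19.9, with 24.2 in pool E and 17.4 in pool F, over 4574 bp. Col12a1 and Col14a1 had the 2 widest FACIT domains in the replicated list and in pool F, while in pool E Col19a1 with 3703 bp was slightly wider than Col14a1 with 3640 bp.

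The remaining FACIT genes were weak or unmarked. Col22a1, a chain of the muscle-tendon junction, had a signal of 5.26, with 5.78 in pool E and 5.68 in pool F, over 1472 bp. Of the type IX genes, which encode the FACIT of cartilage, Col9a2 had 9.94, with 10.1 and 9.78, Col9a3 had the pool F peak described above, and Col9a1 had no peak within 56242 bp of a TSS. Col20a1 had none within 17591 bp. The 3 chains of one heterotrimer, type IX, were therefore marked in both pools, in 1 pool and in neither.

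The marked transmembrane collagens had higher signal than the collagen median of 27.1 and narrow domains. Col23a1 had 47.5, with 51.3 in pool E and 44.9 in pool F, Col13a1, a collagen of the neuromuscular junction, had 35.7, with 40.4 and 32.3, and Col25a1, which muscle needs for motor innervation, had 33.1, with 37.2 and 30.3. Their domains measured 1706, 2103 and 1869 bp, all under the all-gene median of 2400 bp. At Col25a1 the first annotated start, that of a non-coding transcript, had no peak, and the peak covered the coding start 49390 bp further in. Col17a1, the collagen of hemidesmosomes in epithelium, was unmarked at all its starts, and its only peak, with a signal of 7.54, lay 9509 bp from the nearest of them.

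The smaller groups gave a similar mix. Col8a1 and Col8a2, network chains of vessel walls and of the eye, had 25.6 (30.1 in pool E, 21.8 in pool F) and 24.5 (23.9 and 25.5). Col10a1, the chain of hypertrophic cartilage, had no peak within 26168 bp. Col15a1, a multiplexin of muscle and vessel basement membranes, had 39.1, with 42.6 in pool E and 42.7 in pool F, over 4775 bp. Col18a1, the precursor of endostatin, had 14.7, with 15.5 in pool E and 23.4 in pool F, over 1672 bp. Col7a1, which anchors the epidermis to the dermis, had no peak within 3762 bp, and Col26a1 had 39.3, with 44.2 and 35.7. The 7 unmarked genes had a median length of 45.8 kb and the marked ones 121 kb, and over all protein-coding genes the unmarked were likewise shorter, 7.5 against 24.7 kb.

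Col18a1 showed several marked starts along 1 gene. The first start had a signal of 14.7, a pair of starts 52602 and 52843 bp further in had 12.7, and a start 77120 bp in had 8.50. Each of these peaks was present in both pools, but the widest domain was at the inner pair in pool E and at the first start in pool F. Over the family, 89 of 200 annotated starts (44.5%) had a peak within 1000 bp, against 59.4% of the starts of all protein-coding genes. The 5′-most start had one in 36 of 44 genes (81.8%), against 65.7% of all protein-coding genes. Of 109 starts more than 5000 bp further in, 8 had one (7.34%), against 23.6% of such starts in all genes. They lay in 6 genes: Col18a1 with 3 such starts, and Col1a1, Col1a2, Col4a1, Col8a2 and Col25a1 with 1 each. When a peak had to cover a TSS, 36 of 44 members remained, without Col6a1, and 67.0% of all genes.

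Marking differed most from the all-gene share among CpG-poor promoters. Each gene was classed by windows of 1000 bp centred on its starts: high where a window reached an observed over expected CpG ratio of 0.75 together with 55% GC, low where no window reached a ratio of 0.48, and otherwise intermediate. All 6 high-CpG collagen genes were marked, against 99.3% of all such genes, and all 14 of intermediate class, against 93.9%. Of 24 low-CpG collagen genes 17 were marked (70.8%), against 25.2% of all low-CpG genes, and the 7 unmarked collagens were all of this class. With the class taken from the 5′-most start alone, 21 of 28 low-CpG collagens were marked (75.0%) against 35.0%. In the high and intermediate classes the all-gene shares leave little room for a higher one. Low-CpG collagens had a median of 4 starts and 76.6 kb, against 2 starts and 8.82 kb over all low-CpG genes. Each start adds a window for a peak, and whether the number of starts moves with marking was not tested. The marked low-CpG members include Col1a2, Col3a1, Col5a2, Col5a3, the 4 genes Col4a3 to Col4a6, and the 5 marked type VI genes.

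**Figure D5:**
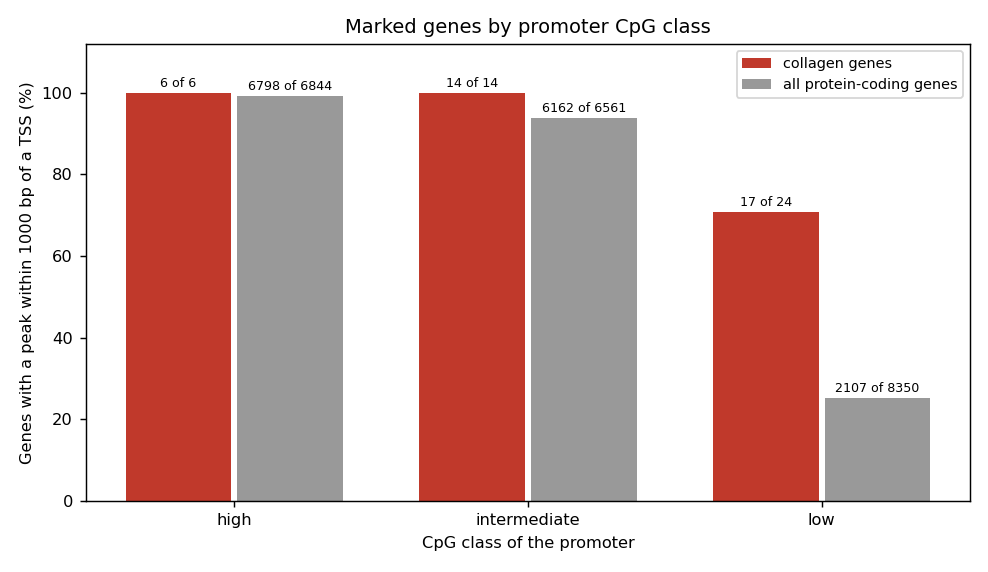
Percent of genes with a peak within 1000 bp of a TSS in the replicated list (vertical axis) by CpG class of the promoter, for collagen genes (red) and all protein-coding genes (grey), with counts above the bars. The bars differ most in the low class, 17 of 24 collagens against 2107 of 8350 genes; collagen genes are included in the grey bars.

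Signal and width did not order alike across these classes. Marked low-CpG collagens had a median signal of 27.1 against 18.6 over all marked low-CpG genes, but by the 5′-most start the same comparison gave 27.1 against 29.1, so its direction depends on how the class is set. Their median domain was 3090 bp against 1732 bp, and 3039 against 2065 bp by the 5′-most start. High-CpG collagens (Col4a1, Col4a2, Col5a1, Col12a1, Col15a1 and Col23a1) had a lower median signal than their class, 42.3 against 51.6, and a wider median domain, 6342 bp against 2792 bp. The 42.3 is the peak shared by Col4a1 and Col4a2, which had 26.5 in pool E and 31.2 in pool F. In the low class Col4a3 and Col4a4 likewise enter with 1 shared peak, and Col4a6 with the value of Col4a5. Intermediate collagens had 25.0 against 43.6, with domains of 2104 and 2108 bp. Whether length, position or cell type composition moves with these values was not tested.

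Short motifs were counted on both strands of the 250 bases before each RefSeq start. CCAAT was present in 13 of 38 collagen promoters (34.2%) and in 35.6% of the protein-coding promoters of the table. TATAAA was present in 5 (13.2%) against 11.7%, and GGGCGG in 22 (57.9%) against 43.1%. GGGCGG was found in 20 of 30 promoters of marked collagens (66.7%) and in 2 of 8 of unmarked ones (25.0%). The motif holds a CpG itself. These promoters come from 28 of the 37 marked genes and from all 7 unmarked ones. The genes missing from the promoter table are therefore all marked. The median number of CpGs was 10 in marked and 1.5 in unmarked collagen promoters, and 10 in all protein-coding promoters of the table. These matches describe letters in the sequence only.

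The pools agreed in the extent of most domains. Of 35 members marked in both pools, 27 had the wider domain in pool E (77.1%), which is near the 76.8% of all genes, and the median ratio of pool E to pool F width was 1.08 against 1.05. The ratio ran from 0.909 to 1.68, the highest being at Col19a1 with 3703 bp in pool E against 2203 bp in pool F. Col1a1, Col5a1 and Col12a1 were among those wider in pool F. At Col18a1 the widest domains of the 2 pools did not overlap, which was so for 1.06% of all genes marked in both pools.

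Peaks inside collagen genes but more than 1000 bp from their own starts were mostly weak. They were not counted over all protein-coding genes, so whether collagen genes, which are long, differ in them is not known. There were 92 of them in 28 members, of which 88 had no annotated TSS of any gene within 1000 bp. These 88 had a median signal of 3.93, against 7.64 over all peaks of the replicated list, and 5 reached 10 or more. The highest, with a signal of 21.8, lay inside Col4a3, 54425 bp from a Col4a3 start (chr1:82641401-82641897), and was present in pool E at 26.7 and in pool F at 19.2. Others were at 14.2 in Col23a1, 11.3 in Col25a1, 11.2 in Col12a1 and 10.1 in Col4a4. Some of the 92 peaks are parts of the promoter domains given above and not separate sites. The Col12a1 peak belongs to its 5961 bp domain, and Col1a1, Col1a2, Col3a1, Col5a1 and Col5a3 also have such peaks. The Col4a3 peak was 497 bp wide and nearly as high as the 27.1 of the promoter that Col4a3 shares with Col4a4. A peak with a signal of 43.7 at the end of Col23a1 lies at the start of the neighbouring gene Phykpl.

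Outside the type IV loci no strongest collagen peak lay within 1000 bp of another protein-coding start. In 35 of 37 marked members the strongest peak covered a start of the gene itself. In 6 it also covered the start of a non-coding gene: Gm47302 at Col3a1, Gm36970 at Col6a3, 2810430I11Rik at Col5a1, Gm12426 at Col15a1, Gm12963 at Col16a1 and Gm43921 at Col1a2. Peak lists carry no strand, so the mark at these 6 starts cannot be split between the 2 genes. None of these counts, nor that at the type IV loci, was made over all marked genes. Whether collagen peaks differ in them from peaks in general is therefore not known.

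Most genes that build, process and bind collagen were marked. Of 70 such genes 65 were marked in each of the 3 lists (92.9% in the replicated list), where 69.3% of all protein-coding genes were marked in it, with a median signal of 38.3 and a median domain of 3458 bp. Signal values of these genes are those of the replicated list, and their order was not always kept in the pools. All 18 genes of chain modification and folding were marked, with a median of 49.8. Mia3, which helps load procollagen for export, led at 61.8, before the prolyl 3-hydroxylase P3h1 at 61.4. In pool F P3h1 at 57.4 lay just above Mia3 at 57.1. Apart from Fkbp10 and Serpinh1, these 18 are of high or intermediate CpG class, where 99.3% and 93.9% of all genes were marked. Full marking of this list is therefore near the share of its classes. All 8 genes of propeptide processing were marked, with a median of 31.9, led by the N-propeptidases Adamts2 at 50.7 and Adamts3 at 49.6. In pool E Adamts3 at 53.6 lay just above Adamts2 at 53.4. Apart from Pcolce, these 8 are also of high or intermediate CpG class, so their full marking is likewise near the share of their classes. Of the 5 crosslinking oxidases 4 were marked, Loxl3 at 40.3 and Lox at 38.3 being the highest, and Loxl2 was not.

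Among collagen receptors 7 of 9 were marked, with Itgb1, the shared integrin beta chain, at 58.2 and the receptor kinase Ddr1 at 44.7. The platelet receptor Gp6 and the leukocyte receptor Lair1 were unmarked. All 15 basement membrane partners were marked, with a median of 41.0, led by the laminin chain Lamc1 at 60.8 and agrin, Agrn, at 58.4. Lamc1 had 66.7 in pool E but only 32.6 in pool F, where Agrn had 54.7. Apart from Lama2, Lama4, Lamb2 and Lamb3, these 15 are of high or intermediate CpG class, where 99.3% and 93.9% of all genes were marked. All 10 fibril-binding proteoglycans and glycoproteins were marked with the lowest median, 13.8, and the highest were fibronectin, Fn1, at 48.0 and Prelp at 26.6. Kera had only 2.46, a peak near the floor of the lists. Apart from Fn1, these 10 genes are of low CpG class, where 25.2% of all genes were marked. The median domain of this list, 4522.5 bp, was nonetheless wider than the collagen median. Of the collagenases and gelatinases 3 of 5 were marked, with Mmp14 at 49.4, Mmp2 at 34.1 and Mmp9 at only 3.46, while Mmp8 and Mmp13 were not. The lists of receptors, crosslinking oxidases and collagenases are short, and their shares lie near that of all genes.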

How the data were processed

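H3K4me3 ChIP-seq of gastrocnemius was deposited as peak lists on mm10, per the labels. The deposited lists give for each peak a signal value and a −log10 q, both by the authors. The signal's unit, the aligner and the peak caller are not given in the sources used here (nor is any filter on reads). The 4 lists are 1 per pool, a replicated list and a pooled list, so replicates can be compared only as 1 list against another. The labels name a possible control experiment, and its use in peak calling is not stated there. The replicated list reaches down to a −log10 q of 0.364, so weak peaks are included.

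From these, peaks were matched to GENCODE M21 TSSs and joined into domains with Python 3.11.15, pandas 2.3.3 and numpy 2.4.6; interval code was tested on simulated data. Sequences are RefSeq, GRCm38.p6. Depth is unknown, no interval is given, and no test was run. Genes described singly are, per chain type, up to 4 marked members of highest signal, all unmarked members, and members that differ between pools or starts, and per pathway list up to 2 marked and 3 unmarked genes; others named were chosen after their values were seen. The members and lists were chosen with earlier results of these data known. Window, TSS set, threshold, list, joining and CpG class were varied.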

Additional observations from a re-analysis of the deposited data

How the results depend on the processing

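The count of marked collagen genes stayed between 36 and 38 of 44 under the 9 alternatives tried. It was 36 when a peak had to cover a TSS (without Col6a1), with the 5′-most TSS (without Col25a1), with a −log10 q of at least 2 or the pooled list (both without Col9a3), and with either pool alone (without Col6a5 in pool F, without Col9a3 in pool E). It was 38 with a window of 2500 bp (with Col28a1). It was 37 with basic coding transcripts, and with peaks assigned to the nearest TSS only, which was added after seeing the data. The share of all protein-coding genes was 67.0% under a covering peak, 65.7% with the 5′-most TSS and 70.4% with 2500 bp. It was 69.1% with the q limit, 69.5% in the pooled list, 69.3% in pool E and 68.9% in pool F. With basic transcripts it was 68.0%, and with the nearest TSS 69.0%. The median domain was 2105 bp without joining, when all genes had 2281 bp, and 3140 bp against 2565 bp with gaps of 3000 bp; it was 2788 bp in pool F and 3236 bp in pool E. No paired analysis was possible because no result comes from a test and the lists hold no value per library. Depth sets no stated limit, since the lists hold no read counts, and a missing peak means only that none was called.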
